A study of Drosophila melanogaster with 3 samples.

Results

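The regions described are the peaks of the protein encoded by CG12219 at bidirectional promoters in whole Drosophila melanogaster embryos. The protein was mapped by ChIP-seq, in which DNA bound by an immunoprecipitated protein is sequenced, on embryos of both sexes, 0 to 18 h old. The embryos came from a transgenic line expressing CG12219 with GFP, a green fluorescent protein, fused at the C-terminus. There were 3 biological replicates of this 1 group and no second condition. A free-text line of the labels calls the samples input controls, whereas the assay title, the antibody field, a separately named control and the peak lists describe immunoprecipitations, and they were treated as such. An untagged line or a mock immunoprecipitation was not used here, and whole embryos pool many cell types, so a peak cannot be assigned to one of them.

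A peak was placed by its summit, the position of highest signal inside the interval, and a transcription start site was the annotated 5' end of any transcript of a protein-coding gene. A peak counted as lying at a bidirectional promoter when its summit was within 500 bp of start sites of at least 2 genes on opposite strands. The irreproducible discovery rate (IDR) step, which compares peak ranks between replicates, gave a list of 4187 peaks. They were the highest-signal calls of the list called on all 3 replicates together, so a single peak need not rank alike in each replicate. Of the peaks in this IDR list, 445 met the rule for bidirectional promoters on arms 2L, 2R, 3L, 3R, 4, X and Y together. They were 10.6% of the list (exact Clopper-Pearson 95% interval 9.71 to 11.6%), and 26.5% of the 1682 peaks at any protein-coding start site. A further 1237 peaks (29.5%) had start sites of 1 strand only within 500 bp, and 2505 (59.8%) had none. The nearest start sites stood in divergent order, transcribed away from each other, at 435 of the 445 summits and overlapped at 10. The summit reached 2 genes in 420 cases and 3 or more in 25. All intervals on shares cover counting error only, and the sequencing depth behind the lists is unknown because they hold no read counts.

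Bidirectional promoters are stretches of DNA from which 2 neighbouring genes are transcribed in opposite directions, and they are common in the compact fly genome, above all among genes that every cell uses. Many of these promoters in flies lack the core elements of regulated genes and carry other short sequences instead, such as the DNA replication-related element (DRE), bound by the factors Dref and BEAF-32, and Motif 1, bound by the zinc finger protein M1BP. Promoters of this kind often lie at borders of chromatin domains, where insulator proteins such as Cp190 and Chromator (the product of Chro) are found.

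The 8 sequences below are shown because they are the whole stretches between divergent start sites under the highest-signal summits for which this stretch was 60 to 300 bp long and held no annotated exon. They were read from the RefSeq genome in dm6 coordinates on the + strand, so that the first gene of each pair is transcribed leftward from the first base and the second gene rightward from the last, and capitals mark the 21 bases centred on the summit. They lie at chr3L:22878985-22879088, chr3R:15229409-15229664, chr3L:5139396-5139618, chr2L:8376798-8377034, chr3R:8650797-8651083, chr3L:9457670-9457911, chr3R:31616161-31616302 and chr3R:15275242-15275521, in the order of the lines.
Chro/Ssl1: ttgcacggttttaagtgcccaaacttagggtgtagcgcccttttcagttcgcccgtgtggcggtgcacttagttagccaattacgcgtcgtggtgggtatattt
Art3/mRpS10: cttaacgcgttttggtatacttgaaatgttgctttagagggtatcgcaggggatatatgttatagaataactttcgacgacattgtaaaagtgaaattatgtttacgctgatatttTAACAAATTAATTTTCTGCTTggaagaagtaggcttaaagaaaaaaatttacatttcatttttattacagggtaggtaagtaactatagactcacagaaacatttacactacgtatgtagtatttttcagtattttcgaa
Tcs5/CHMP2B: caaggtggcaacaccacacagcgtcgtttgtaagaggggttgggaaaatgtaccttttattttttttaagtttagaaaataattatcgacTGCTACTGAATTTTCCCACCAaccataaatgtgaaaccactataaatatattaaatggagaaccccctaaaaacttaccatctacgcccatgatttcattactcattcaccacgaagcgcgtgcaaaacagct
CG13390/CG17294: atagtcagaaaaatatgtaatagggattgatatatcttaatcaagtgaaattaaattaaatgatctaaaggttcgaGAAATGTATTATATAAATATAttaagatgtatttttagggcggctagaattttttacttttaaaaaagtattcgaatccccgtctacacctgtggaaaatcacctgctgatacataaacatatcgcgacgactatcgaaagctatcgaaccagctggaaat
Mkk4/SLIRP2: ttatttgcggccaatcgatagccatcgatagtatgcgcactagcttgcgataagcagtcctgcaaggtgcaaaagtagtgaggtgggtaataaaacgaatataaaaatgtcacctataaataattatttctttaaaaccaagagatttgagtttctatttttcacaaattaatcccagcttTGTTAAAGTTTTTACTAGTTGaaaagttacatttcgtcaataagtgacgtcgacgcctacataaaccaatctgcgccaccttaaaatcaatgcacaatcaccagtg
CG3437/CG3552: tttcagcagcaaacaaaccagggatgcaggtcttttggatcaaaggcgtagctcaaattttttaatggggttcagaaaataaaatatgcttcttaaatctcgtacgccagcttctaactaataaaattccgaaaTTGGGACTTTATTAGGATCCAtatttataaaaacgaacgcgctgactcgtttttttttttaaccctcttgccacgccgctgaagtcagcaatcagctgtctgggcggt
Mnat9/CG1792: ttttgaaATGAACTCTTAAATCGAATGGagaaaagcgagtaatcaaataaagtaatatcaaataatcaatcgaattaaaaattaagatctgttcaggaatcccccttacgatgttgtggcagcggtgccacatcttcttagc
Cp190/CG4338: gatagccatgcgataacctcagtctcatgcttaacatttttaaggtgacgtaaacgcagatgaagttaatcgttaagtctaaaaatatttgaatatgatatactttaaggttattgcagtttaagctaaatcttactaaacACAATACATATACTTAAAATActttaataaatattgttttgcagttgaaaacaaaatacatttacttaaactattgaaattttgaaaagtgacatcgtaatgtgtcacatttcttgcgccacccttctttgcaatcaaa
In Chro/Ssl1 the summit fell outside the stretch, 103 bp into the transcribed side of Chro, so no base is capitalised. In the others it fell inside, at base 127 of 256 in Art3/mRpS10, at base 101 of 223 in Tcs5/CHMP2B and at base 152 of 280 in Cp190/CG4338, near the middle, and at base 18 of 142 in Mnat9/CG1792, near one end. The stretches ran from 49.0% A+T in Chro/Ssl1 to 71.1% in Cp190/CG4338. Of the DRE core ATCGAT, Motif 1 (GGTCACAC), Motif 7 (CATCNCTA), the E-box CAGCTG and the GAGA letters GAGAG, searched on both strands, ATCGAT occurred at bases 14 to 19 and 24 to 29 of Mkk4/SLIRP2, centred -175.5 and -165.5 bp from the summit, and CAGCTG at bases 227 to 232 of CG13390/CG17294 and of CG3437/CG3552. None of the 5 was found in the other 5 stretches. Shorter letters outside these 5 do occur there, such as the BEAF-32 letters CGATA on either strand of Art3/mRpS10, Tcs5/CHMP2B and Cp190/CG4338.

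The ranks by signal of peaks at bidirectional promoters and at start sites of 1 strand overlapped almost wholly, and the difference between their medians depended on the window around the start site. The rank, counted from 1 for the highest signal of the IDR list, had a median of 1951 (quartiles 888 and 2951) at bidirectional promoters and of 2015 (862 and 3174) at start sites of 1 strand. In 5 nearly equal parts of the list, from the highest signal to the lowest, peaks at bidirectional promoters made up 12.8%, 11.1%, 10.3%, 10.3% and 8.71%. Peaks at start sites of 1 strand numbered 304, 223, 218, 237 and 255 in the same parts, also most in the first. In each replicate the 4187 calls of highest signal, as many as the IDR list holds, are called its top calls here, and 410, 439 and 441 of them lay at bidirectional promoters in replicates 1, 2 and 3. As a percentile of rank within the list, the median at bidirectional promoters minus that at start sites of 1 strand was -3.34, 0.88 and -7.45 points in the replicates, with a mean of -3.30 ± 4.17 (SD, n = 3). The sign differed between replicates (exact sign-flip permutation test over the 3 replicates, two-sided, p = 0.5, and 0.625 after Benjamini-Hochberg adjustment over the 5 differences tested). With 3 replicates this test cannot give a p below 0.25, so no difference could pass 0.05. In the IDR list the difference was -1.53 points, negative meaning higher signal at bidirectional promoters, but it was -11.6 points when start sites were sought within 250 bp of the summit, where 277 peaks lay at bidirectional promoters.

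Of the 20 strongest of these peaks, 6 ranked among the first 20 of the IDR list. At rank 5 stood the summit between mRpS23, which encodes a protein of the mitochondrial ribosome, and CenG1A, an Arf GTPase-activating protein gene (2L, 13835293 to 13835652), at -389 and -103 bp from their start sites, negative offsets being upstream. It ranked 2, 6 and 6 in replicates 1, 2 and 3, a rank in a replicate being that of the call nearest to the summit within 250 bp. Ranks 12, 13, 15 and 18 were those of CG11309/CG7632, Chro/Ssl1, Art3/mRpS10 and Pdrg1/Pal1. Fbw5, an F-box gene, and CG9147 shared the summit of rank 14 (2L, 6065940 to 6066277), at -152 bp from Fbw5 and 18 bp inside CG9147, which ranked 15, 15 and 13 in replicates 1, 2 and 3. CG5611 and Mtl shared the summit of rank 26 (3R, 27635983 to 27636333), which ranked 50, 40 and 16. The summits of ranks 5, 12, 13, 14, 15, 18 and 26 all stood among the first 50 calls of every replicate.

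Further down, the summit of Stt3A, a catalytic subunit gene of the oligosaccharyltransferase, and bves ranked 46 (X, 21054176 to 21054492), and 61, 39 and 59 in the replicates. That of Acbp1, an acyl-CoA binding protein gene, and Piezo, which encodes a mechanically gated channel, ranked 55 (2L, 8162451 to 8163089), and 81, 23 and 202. Mkk4, a kinase gene of the JNK pathway, and SLIRP2 shared the summit of rank 78 (3R, 8650817 to 8651113), ranked 74, 81 and 96. Ns2, which encodes a nucleostemin GTPase, and POSH, a scaffold gene of JNK signalling, shared that of rank 97 (2R, 17568480 to 17568779), ranked 112, 101 and 102. CG1275 and Elp5, which encodes a subunit of the Elongator complex, closed the 20 strongest at rank 115 (3L, 2257376 to 2257637), ranked 123, 186 and 67. In all, 18 of the 445 stood among the first 100 peaks of the IDR list, and 44 of the 1237 at start sites of 1 strand.

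Most peaks at bidirectional promoters had a call nearby in each replicate's own list. The IDR list was made from these same replicates, and their lists include background calls, so such a call is no independent check. A call within 250 bp was present in all 3 lists of 30000 calls for 420 of the 445. Among the top calls alone, 269 (60.4%, interval 55.7 to 65.02%) had a counterpart in all 3 replicates, 121 in 2, 49 in 1 and 6 in none, and at start sites of 1 strand 754 of 1237 (61.0%, 58.2 to 63.7%) had one in all 3. The share recovered among the top calls of replicates 1, 2 and 3 was 74.8%, 87.9% and 84.0% at bidirectional promoters, against 80.3%, 86.0% and 81.8% at start sites of 1 strand. The difference, -5.44, 1.85 and 2.23 points, had no common sign (mean -0.45 ± 4.33, SD, n = 3, exact sign-flip permutation test, two-sided, p = 1, adjusted p = 1). Replicate 1 recovered the fewest of the peaks at bidirectional promoters.

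The summits of the same peak lay close together between replicates. For the 269 peaks found in all 3, the median distance between the summits of replicates 1 and 2, 1 and 3, and 2 and 3 was 25, 22 and 22 bp. It was at most 50 bp in 72.5%, 79.2% and 79.2%. These peaks were chosen for having a top call within 250 bp of the IDR summit in each replicate, which by itself limits the distances. Some peaks were uneven. The summit of CG12321 and MED17, a Mediator subunit gene, ranked 27842 in replicate 1 but 3082 and 2516 in replicates 2 and 3. That of orb and Cdc16, a gene of the anaphase-promoting complex, ranked 26191 in replicate 1, and 955 and 923 in the other two, but a top call of replicate 1 also lay within 250 bp, beyond that nearest call, so the peak counted as recovered there. The summits of mRpL27/CG15435 and Sfp26Ad/Gpdh1 ranked 25055 and 23052 in replicate 3, and within the first 4187 in the others. The summit of DnaJ-H, a chaperone gene, and Sirt1, a deacetylase gene, ranked 21890, 2362 and 4468.

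Genes in opposite-strand pairs carried a peak at their start sites more often than other genes. A gene counted as paired when a protein-coding start site of the opposite strand lay within 1000 bp of one of its own, close enough for 1 summit to reach both, and 5141 of the 13968 protein-coding genes were paired. An IDR summit lay within 500 bp of a start site of 1149 of the 5141 paired genes, or 22.3%, and of 847 of the 8827 others, or 9.6%. In the top calls of replicates 1, 2 and 3 the shares were 21.9%, 22.0% and 22.3% of paired genes, against 10.3%, 9.28% and 9.75% of the others, so that the groups did not overlap. The difference was 11.6, 12.7 and 12.5 points, 12.3 ± 0.60 (SD, n = 3), and was positive in 3 of 3 replicates (exact sign-flip permutation test, two-sided, p = 0.25, the smallest possible, adjusted p = 0.417). A summit at the start site of one gene of a close pair is counted for its partner as well, and how much of the difference comes from this was not tested. Genes with more start sites have more chances to be reached, so the genes were also compared at equal numbers. With 1 start site the shares were 17.4% of paired and 5.82% of other genes, with 2 they were 28.7% and 16.2%, and with 3 or more 43.5% and 34.2%.

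Counted by pair, the annotation held 2720 opposite-strand gene pairs, and an IDR summit lay within 500 bp of start sites of both genes in 480, or 17.6%. By the closest start sites of each pair, 455 of 2616 divergent pairs (17.4%) and 25 of 104 overlapping pairs (24.04%) were reached in this way. Of the 480, 467 had 1 such summit and 13 had 2. They held 900 genes, or 17.5% of the paired genes. The densest start region was that of mod(mdg4), a locus known for joining exons transcribed separately from both strands, where 1 summit (3R, 21365301 to 21365518) lay within 500 bp of start sites of 10 annotated pre-mod(mdg4) genes. Its rank was 668, and 868, 533 and 779 by replicate. This summit reached 3 genes on the minus strand and 7 on the plus strand, and was counted for each opposite-strand pair among them. Pairs that share a summit are not independent, here and in the counts by distance and by arm, which the intervals on pairs do not allow for. How many of the 25 overlapping pairs share a summit is not given here.

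Peaks were most frequent where the divergent start sites stood 201 to 300 bp apart. With pairs classed by their closest start sites, the share with a summit reaching both genes was 18.8% (interval 15.2 to 22.9%) at 0 to 100 bp, 15.8% (12.2 to 20.05%) at 101 to 200 bp, 28.5% (24.7 to 32.6%) at 201 to 300 bp, 24.1% (19.97 to 28.6%) at 301 to 400 bp, 15.6% (11.4 to 20.6%) at 401 to 500 bp and 5.14% (3.58 to 7.10%) at 501 to 1000 bp. In the top calls of replicates 1, 2 and 3 it was 25.1%, 27.4% and 26.1% at 201 to 300 bp, against 17.2%, 17.2% and 18.4% at 101 to 200 bp. These classes did not overlap, while the classes of 201 to 300 and 301 to 400 bp did (20.6%, 26.1% and 28.7% in the second). The stretch from which a summit can reach both genes shrinks as the distance grows, so the count was repeated with 1 fixed window, 250 bp either side of the midpoint. It gave 15.7%, 14.1%, 27.8%, 22.6%, 14.8% and 9.06% from the shortest class to the longest. The class of 101 to 200 bp holds 38 pairs of repeated histone genes, none with a peak, and its share without them was 17.7% of 316 pairs. Mean A+T content around the midpoint moved with these classes (55.8%, 60.6%, 72.4%, 72.0%, 71.9% and 66.7%), and its part in the result was not tested.

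**Figure D1:**
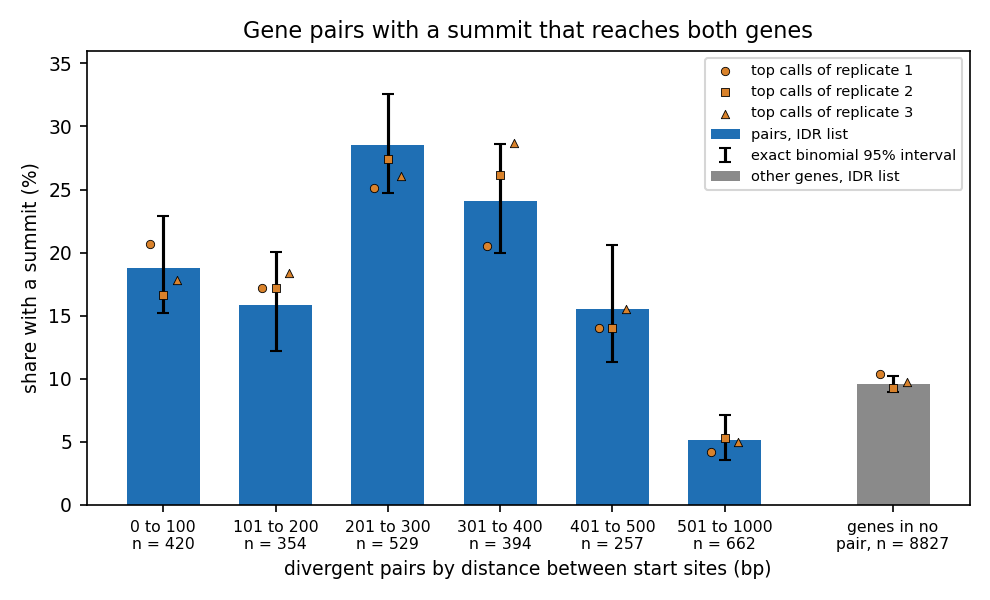
Share of divergent gene pairs with an IDR summit within 500 bp of start sites of both genes, in percent, by the distance between the closest start sites in bp. Blue bars give the IDR list with exact binomial 95% intervals, the grey bar gives genes in no pair with a summit within 500 bp, and orange symbols give the top calls of the 3 replicates; the bar at 201 to 300 bp reaches 28.5% and that at 501 to 1000 bp 5.14%.

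Summits lay between the start sites rather than in the transcribed parts. At the 435 divergent pairs, 326 summits (74.9%, interval 70.6 to 78.9%) lay between the nearest start sites, a stretch that took on average 45.5% of the positions from which both could be reached. The remaining 109 lay 54 on the side of the minus-strand gene and 55 on that of the plus-strand gene. An upstream place was about as common at start sites of 1 strand, where 937 of 1237 summits (75.7%) lay upstream of the nearest start site. In the top calls of replicates 1, 2 and 3 the share between the start sites was 67.1%, 78.7% and 78.1% (74.6 ± 6.536%, SD, n = 3), lowest in replicate 1. The median distance of a summit from the midpoint of its pair was 67 bp in the IDR list and 79.5, 62 and 67.5 bp in the replicates. It was at most 50 bp for 173 summits (39.8%) and at most 100 bp for 282 (64.8%), while 110 (25.3%) lay within 50 bp of a start site. To the nearer start site the median offset was -80 bp (quartiles -121 and -1), against -139 bp (-258 and -6) at start sites of 1 strand. A second start site caps this offset at bidirectional promoters, so the medians are given as a description.

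Position changed with the distance between the start sites nearest to the summit on each strand. At 201 to 300 bp, 125 of 149 summits (83.9%) lay between the start sites, with a median of 33.5 bp from the midpoint. At 0 to 100 bp, where there is little room, 9 of 52 (17.3%) did, and the median offset was 60 bp into the nearer gene and -104.5 bp from the farther one. At 101 to 200 bp it was 18 of 47 (38.3%), at 301 to 400 bp 80 of 90 (88.9%) and at 401 to 500 bp 49 of 52 (94.2%). The shortest stretches were those of Atg6, the fly Beclin gene of autophagy, and Pisd with 1 bp (3R, 24050587 to 24050976, rank 3383), of dpa, which encodes Mcm4, and didum, a class V myosin gene, with 2 bp (2R, 7499828 to 7500217, rank 1969), and of CG7246 and HP1b, a heterochromatin protein 1 gene, with 6 bp (X, 9080958 to 9081347, rank 4083). The longest were those of CG16956/CG42784 with 856 bp (rank 1046), stwl/CG3919 with 687 bp (rank 3736) and Fatp1/Lrr47 with 667 bp (rank 2301). Among overlapping pairs the distance, negative where start sites have passed each other, was -418 bp at Max, which encodes the partner of Myc, and Mettl5 (rank 3100). It was -238 bp at pita, an insulator protein gene, and Dcp-1, a caspase gene (rank 1752), and -234 bp at CG31808 and Cyt-c-d, a cytochrome c gene (rank 139).

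**Figure D2:**
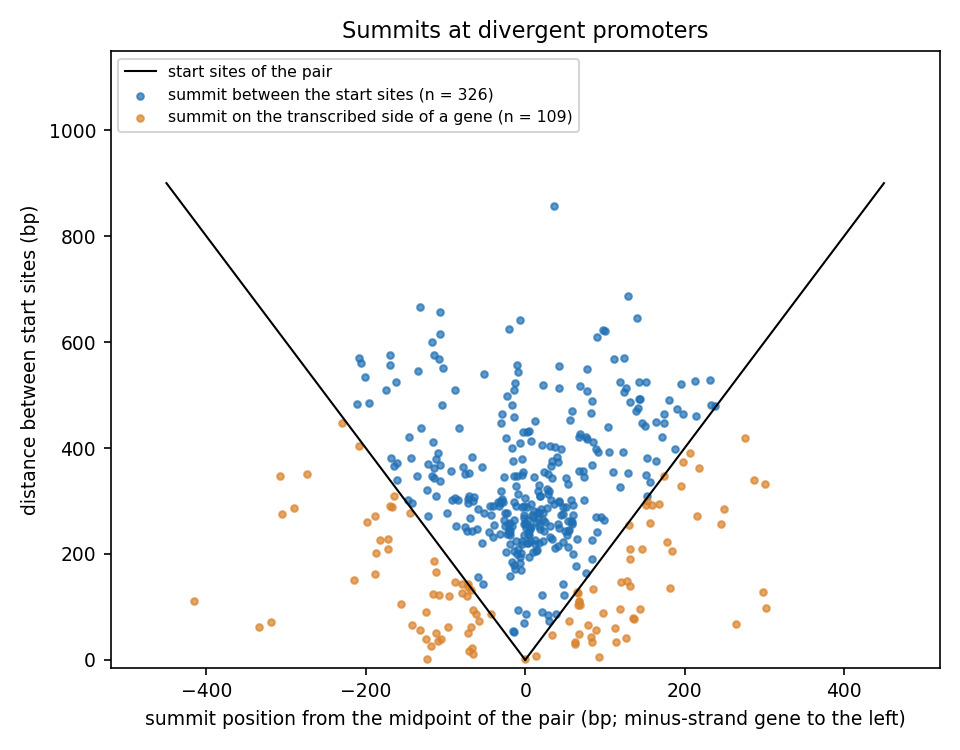
Each point is 1 of the 435 IDR summits at divergent pairs, by its position from the midpoint of the pair in bp (horizontal) and the distance between the start sites in bp (vertical); black lines mark the start sites. The 326 summits between the start sites (blue) gather near the midpoint at distances of 200 to 300 bp, and the 109 on a transcribed side (orange) are spread over both sides.

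Of the 13 pairs with 2 summits, the first 3 in alphabetical order are Brf/sds22, CG10584/Polr3E and CG1407/CG12129. Brf encodes a factor of RNA polymerase III and Polr3E a subunit of that polymerase. At Brf/sds22 the summits ranked 573 and 2072 (3R, 17391362 to 17391571 and 17391516 to 17391905), the first between the start sites and the second 117 bp into sds22. At CG10584/Polr3E (3L, 21031429 to 21031608 and 21031664 to 21031774, ranks 706 and 2244) and at CG1407/CG12129 (2R, 10032788 to 10033177 and 10032988 to 10033377, ranks 2098 and 3981) both lay between them. In the top calls of replicates 1, 2 and 3, a pair of summits was not found each time: Brf/sds22 had 1, 2 and 1, CG10584/Polr3E 1, 2 and 2, and CG1407/CG12129 1, 1 and 1. None of the 13 pairs had 2 in every replicate. At the edge of the rule, the farther start site was 496 bp away for CCT8/CG30349 (rank 3408) and 493 bp away for Gfat2/Moca-cyp (rank 2662). Just outside it, the summit at mura lay 501 bp from RnpS1 (rank 1571) and that at CG42613 lay 503 bp from Mpc1 (rank 1665).

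DNA around the summits was richer in A+T at bidirectional promoters than at start sites of 1 strand, but not by much than at divergent promoters without a peak. Within 50 bp of the summit the mean A+T content in the top calls of replicates 1, 2 and 3 was 62.9%, 68.4% and 65.9% at bidirectional promoters, against 58.0%, 64.4% and 61.8% at start sites of 1 strand. The difference was 4.84, 3.98 and 4.07 points within each replicate, 4.30 ± 0.47 (SD, n = 3), positive in 3 of 3 (exact sign-flip permutation test, two-sided, p = 0.25, adjusted p = 0.417). The replicates differed among themselves by more than this, with replicate 1 lowest in both sets. In the IDR list the means were 66.7% and 62.5%, and peaks away from protein-coding start sites had 65.8%, close to the first. The flanks of the same summits at bidirectional promoters, centred 500 bp either side, held 50.5%. Around the midpoints of divergent pairs the mean was 68.1% in the 455 with an IDR summit and 66.3% in the 2161 without, and by replicate the difference was 0.076, 2.19 and 1.67 points (1.31 ± 1.10, SD, n = 3).

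**Figure D3:**
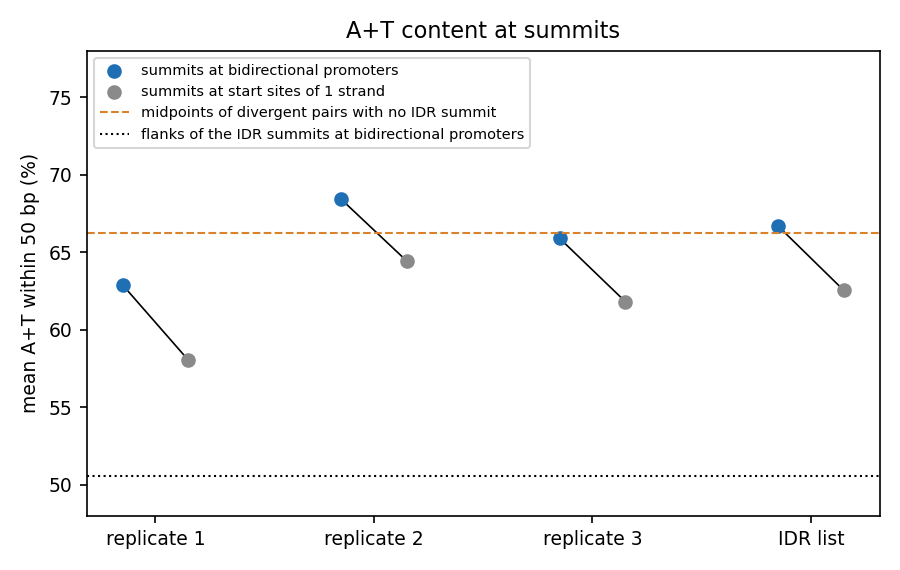
Mean A+T content within 50 bp of the summit, in percent, for the top calls of each replicate and for the IDR list; blue points are summits at bidirectional promoters and grey points summits at start sites of 1 strand, joined within a list. Every blue point is above its grey partner, and the dashed line for divergent pairs with no IDR summit (66.3%) lies among the blue points; the dotted line marks the flanks (50.5%).

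The share of windows with a DRE was higher at bidirectional promoters than at start sites of 1 strand, and in the IDR list it was lower than at divergent pairs without a peak. Its 8 letters TATCGATA were searched on both strands within 100 bp of the summit, and were found in 29 of 445 windows at bidirectional promoters (6.52%, interval 4.41 to 9.23%), against 34 of 1237 at start sites of 1 strand (2.75%, 1.91 to 3.82%). In the top calls of replicates 1, 2 and 3 the shares were 10%, 7.06% and 8.84% at bidirectional promoters, against 2.96%, 2.20% and 3.63% at start sites of 1 strand, without overlap. The difference was 7.04, 4.86 and 5.22 points, 5.71 ± 1.17 (SD, n = 3), positive in 3 of 3 (exact sign-flip permutation test, two-sided, p = 0.25, adjusted p = 0.417). Windows of the same length at the midpoints of divergent pairs with no IDR summit held it in 195 of 2161 cases (9.02%, 7.85 to 10.3%). By replicate the divergent pairs without a top call held it in 8.63%, 8.96% and 9.01%, within the range of the peaks at bidirectional promoters. The DRE core ATCGAT, which lies inside the DRE, gave 15.7% of windows at bidirectional promoters, 8.16% at start sites of 1 strand and 22.4% at divergent pairs with no IDR summit. The BEAF-32 letters CGATA, also part of the DRE, gave 37.1%, 29.1% and 42.1% in the same order, and Motif 1 gave 4.72%, 2.18% and 5.65%.

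GAGA letters showed the opposite order. GAGAG, part of the sites of GAGA factor, a chromatin-opening protein encoded by Trl, was present in 73 of 445 windows at bidirectional promoters (16.4%, interval 13.1 to 20.2%) and in 384 of 1237 at start sites of 1 strand (31.0%, 28.5 to 33.7%). By replicate the shares were 19.8%, 13.0% and 14.5% at bidirectional promoters, against 37.9%, 29.6% and 30.2% at start sites of 1 strand, again without overlap. Divergent pairs with no IDR summit held it in 13.8% of windows. The longer GAGAGAG, which contains it, gave 1.35% at bidirectional promoters, 9.05% at start sites of 1 strand and 2.41% at divergent pairs with no IDR summit. The initiator letters TCAGT gave 29.0%, 36.8% and 31.8% in that order, the TATA box letters TATAAA 40.7%, 31.0% and 39.6%, 6 A in a row 44.5%, 37.3% and 46.6%, and Motif 7 6.97%, 3.96% and 5.37%. For every motif of this and the preceding paragraph, the share in the IDR list at bidirectional promoters was nearer to that at divergent pairs with no IDR summit than to that at start sites of 1 strand. Those pairs were measured at midpoints and the peaks at summits. Around the midpoints of the 455 divergent pairs with an IDR summit, Motif 7 was in 5.27% and 6 A in a row in 48.6%. This reversed the order of both against pairs without a summit, while the other motifs kept theirs. A match of letters is a description and no measured binding.

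**Figure D4:**
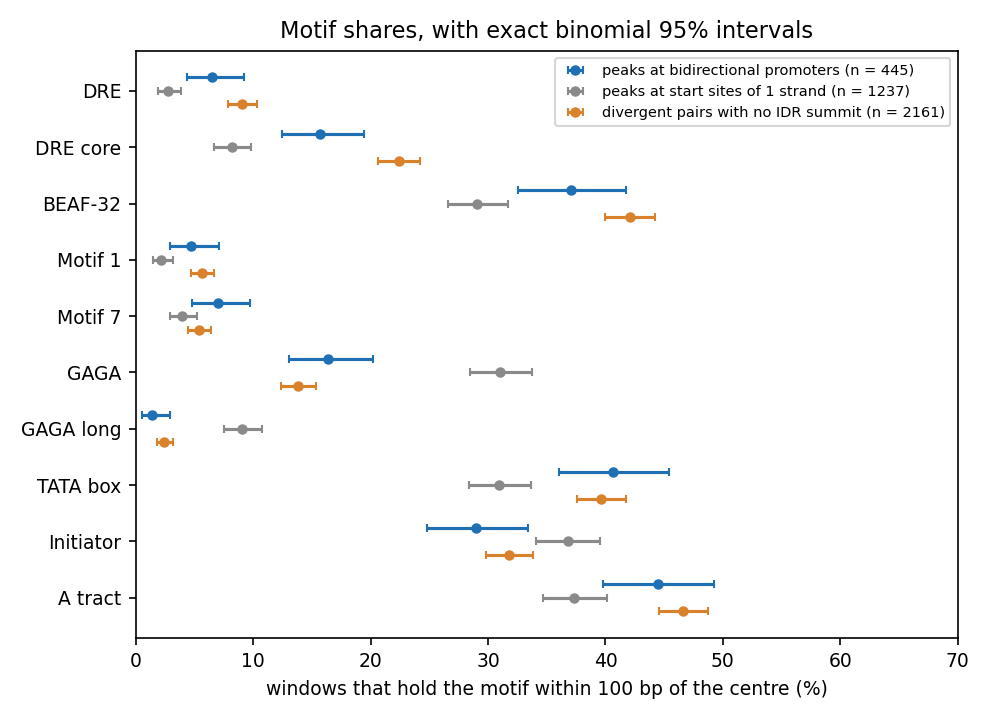
Percent of windows, 100 bp either side of the centre, that hold each motif on either strand, with exact binomial 95% intervals; centres are summits at bidirectional promoters (blue, n = 445), summits at start sites of 1 strand (grey, n = 1237) and midpoints of divergent pairs with no IDR summit (orange, n = 2161). The DRE was at 6.52%, 2.75% and 9.02% in this order, and GAGA at 16.4%, 31.0% and 13.8%.

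Among genes of the protein-making machinery, those of the cytosolic ribosome had the most peaks. A summit reaching both genes of a pair was found for 28 of the 53 ribosomal protein genes that lie in pairs (52.8%, interval 38.6 to 66.7%), against the 17.5% of all paired genes given above, and for 30, 27 and 29 in replicates 1, 2 and 3. Ribosomal protein genes in no pair had a peak within 500 bp of a start site in 22 of 33 cases (66.7%). That is a looser measure than a summit reaching both genes, here and in the lists below, so the shares are not directly comparable. By the looser measure all paired genes had 22.3%, and its values for the paired genes of each list are not given. The strongest of the pairs was RpS27/Nup37, whose second gene encodes a nuclear pore protein (3R, 25247354 to 25247677), at 7 bp inside RpS27 and -151 bp from Nup37, ranked 187 overall and 85, 573 and 107 in replicates 1, 2 and 3. It was followed by Ripalpha/RpL7 (2L, 10200905 to 10201179, rank 213, and 83, 537 and 151), Nelf-E/RpL14 (3L, 8600867 to 8601130, rank 320, and 191, 641 and 162) and Dph4/RpL13A (3R, 5624327 to 5624552, rank 362, and 256, 568 and 245). All 4 ranked lowest in replicate 2. In each of them the summit was nearer to the ribosomal protein gene, at 7, 48, 3 and -23 bp.

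Of the 75 mitochondrial ribosomal protein genes 59 lay in pairs, and 14 of these 59 were reached (23.7%, interval 13.6 to 36.6%; 14, 15 and 11 in the replicates). None of the 16 in no pair had a peak. A rough bound of 3 counts gives 18.8% (3 of 16), which does not separate them from the 9.6% of all genes in no pair. After mRpS23 and mRpS10 the strongest were mRpL23/CG9004 (3L, 2373442 to 2373758, rank 105, and 86, 149 and 66) and mRpL24/betaggt-I (2L, 4945385 to 4945614, rank 475, and 1018, 468 and 384). Translation factors were reached in 6 of 28 cases (21.4%), led by eIF4EHP/CG18428 at rank 138, a gene for a cap-binding repressor of translation, and aminoacyl-tRNA synthetases in 3 of 22 (13.6%), IleRS, SerRS and ThrRS. Of the respiratory chain and ATP synthase genes in no pair, 0 of 45 had a peak. The same rough bound of 3 counts gives 6.67% for them, where all genes in no pair had 9.6%. Those in pairs were reached in 9 of 47 cases (19.1%), near the 17.5% of all paired genes. They were led by ND-ASHI, a complex I subunit gene, with Fum1, a fumarase gene (X, 6679255 to 6679522, rank 199, and 164, 219 and 215), whose summit lay at -248 and -274 bp.

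Genes of insulator and architectural proteins, which shape chromatin borders, were reached in 9 of 19 cases in pairs (47.4%, interval 24.4 to 71.1%; 7, 9 and 8 in the replicates), and 1 of 12 in no pair had a peak (8.33%), where all paired genes had 17.5% and all genes in no pair 9.6%. The 9 were Chro, Cp190, Dref, pita, M1BP, pzg, which encodes a partner of Dref, cg, a zinc finger gene, and the condensin genes SMC2 and Cap-H2. The list thus includes Dref and M1BP, whose products bind motifs of such promoters. At Dref/RpL13 the summit (2L, 9967205 to 9967429) lay between the start sites, at -71 bp from Dref and -13 bp from RpL13, and ranked 516, and 407, 672 and 394 in the replicates. At Cp190/CG4338 (3R, 15275228 to 15275552) it lay at -152 and -129 bp, and ranked 146, and 221, 112 and 205. At M1BP/CG8202 (3R, 8731822 to 8732211) it lay at -319 bp from M1BP and -74 bp from CG8202, nearer to the second. It ranked 1943 there, and 2140, 2213 and 2181. The list is small, and its interval is wide. The shares in pairs and in no pair are again unlike measures.

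For the remaining lists too, the share over all genes was 17.5% in pairs, for a summit reaching both genes. It was 9.6% in no pair, for any summit within 500 bp, which is an unlike measure. General transcription genes were reached in 11 of 47 cases (23.4%, interval 12.3 to 38.03%), among them MED30/Rev1 at rank 535, which ranked 524, 543 and 519 in the replicates, and genes of RNA polymerase II such as Polr2B and Polr2H. The replicates gave 6, 13 and 9 of the 47, the fewest in replicate 1. Nuclear pore and transport genes were reached in 7 of 28 cases (25%), DNA repair genes in 4 of 18 (22.2%), chaperone genes in 5 of 20 (25%), vesicle transport genes in 13 of 71 (18.3%, with Fur1/Vps33B at rank 171), cell cycle and replication genes in 6 of 41 (14.6%, with CG13933/PolD2 at rank 281) and splicing genes in 4 of 33 (12.1%). Proteasome genes were reached in 2 of 26 cases (7.69%), at Rpn3 and Rpn13. Polycomb and trithorax group genes were reached in 3 of 19 cases in pairs (15.8%), and 7 of 14 in no pair had a peak (50%). The 3 were brm, an ATPase gene of chromatin remodelling (with Arl1, rank 420), E(z), the histone methyltransferase gene of the Polycomb complex (with Cnep1r2, rank 751), and Bap60 (with CG12096, rank 2699).

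Taking these 15 lists as 1 group, 124 of 531 paired genes were reached (23.4%, interval 19.8 to 27.2%), and 96 of 478 (20.1%, 16.6 to 23.96%) without the cytosolic ribosomal proteins, against 17.5% of all paired genes. The genes of the 15 lists lay in pairs in 63.2% of cases, all protein-coding genes in 36.8%. Chemoreceptor and odorant-binding protein genes (39 in pairs), cuticle protein genes (13) and patterning transcription factor genes (1) were in pairs in 14.3% of cases. None of these 53 was reached in the IDR list (exact interval 0 to 6.72%). In the top calls of replicates 1, 2 and 3 the count was 0, 0 and 1, the last a chemoreceptor or odorant-binding protein gene. In 7 pairs with a peak both genes stood on a list: Cdk1/mRpS7, Dref/RpL13, mRpS16/cg, RpL28/eIF1, RpS27/Nup37, MED7/Cap-H2 and Sec3/COX7B. The number of such pairs without a peak is not given here, so the 7 are named as examples and give no share. At Cdk1/mRpS7, which joins the kinase gene of mitosis to a mitochondrial ribosomal protein gene, the summit lay at -184 and -216 bp in a stretch of 400 bp and ranked 2820, and 5453, 2118 and 2705 in the replicates.

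**Figure D5:**
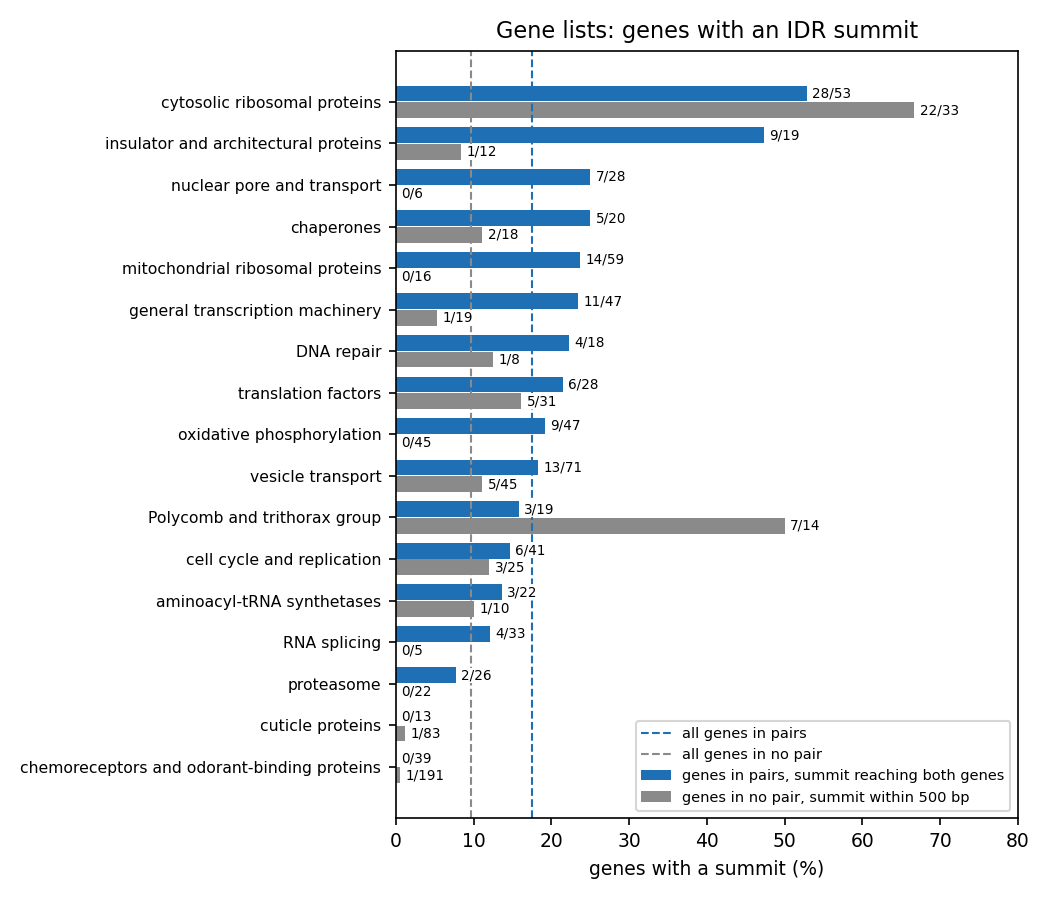
Percent of genes with an IDR summit by gene list, with the counts at the bars: genes in opposite-strand pairs with a summit that reaches both genes (blue) and genes in no pair with a summit within 500 bp of a start site (grey); dashed lines give all paired genes (17.5%) and all others (9.6%). Cytosolic ribosomal proteins (28 of 53) and insulator and architectural proteins (9 of 19) stand highest among the blue bars.

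Along the genome, the share of pairs with a peak was lowest on the X chromosome among the long arms. A summit reached both genes in 54 of 410 pairs on X (13.2%, interval 10.1 to 16.8%), against 98 of 517 on 2L (19.0%), 87 of 555 on 2R (15.7%), 97 of 528 on 3L (18.4%) and 144 of 699 on 3R (20.6%). The count on 3R is raised by the pre-mod(mdg4) summit, which counts for many pairs. The summits themselves numbered 121 on 3R, 95 on 2L, 85 on 2R, 94 on 3L and 50 on X. The share on X was 11.7%, 11.2% and 12.7% in the replicates, below that of every long autosome arm in each of them. None of the 11 pairs on chromosome 4 had a summit (exact interval 0 to 28.5%). In the pooled list of calls, the share at bidirectional promoters fell steadily with rank, with 10.6% among the first 4187 calls, 6.93% among the next 4187 and 1.68% among ranks 25123 to 30000, while start sites of 1 strand took 29.5%, 27.8% and 13.3%.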

How the data were processed

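Peak lists for 3 biological replicates of 1 group were analysed, in dm6 coordinates per the labels. Replicate lists were called on 1 replicate each and the pooled list on all 3 together, always with a control, per the file listing that was deposited; each holds 30000 calls, including background calls meant as input for IDR. Not given in the sources used here are the authors' aligner, peak caller and cutoff for IDR. For each peak, the authors deposited a signal value with no stated normalization, which served only to rank calls inside one list. Ties were broken by the −log10 q value as deposited, and the summit offset is as the authors deposited it. The 4187 IDR peaks were the pooled list's highest-signal calls.

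Start sites came from Ensembl release 115 (BDGP 6.54; 19630 positions of 13968 protein-coding genes) and sequence from the RefSeq genome, whose arms are long enough for every peak and gene. Peaks matched between lists when summits lay within 250 bp. Differences were computed within each replicate and tested by an exact two-sided sign-flip permutation test over the 3 replicates, with Benjamini-Hochberg adjustment over 5 tests. Peaks are not replicates, so no test was made over them. The 18 gene lists, by symbol, and 17 motifs were described by counts. Named are the 20 strongest peaks in part, the strongest up to 4 per list in part, the shortest and longest stretches and overlaps, those at the rule's edge, those with the largest rank spread, and pairs with the most summits, ties broken alphabetically. M1BP, the remaining insulator genes, Cdk1/mRpS7 and pre-mod(mdg4) were named after their values were seen. The members and lists were chosen with earlier results of these data known. Scripts were tested on simulated data and used Python 3.11.15, numpy 2.4.6, scipy 1.17.1, pandas 2.3.3 and matplotlib 3.10.9.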

Additional observations from a re-analysis of the deposited data

How the results depend on the processing

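The number of peaks at bidirectional promoters, 445, was 277 with a window of 250 bp, 242 in the higher-signal part of the list (its upper 50%) and 269 among peaks in the top calls of all 3 replicates. Leaving out 1 replicate at a time, which asks for a counterpart in both others, gave 293 to 339 peaks, lowest without replicate 2. The 2 differences without a common sign changed direction. That in rank percentile, -1.53, was -11.6 with a window of 250 bp, 1.65 with 1 start site per gene, 2.63 in the higher-signal part and 0.43 among peaks in the top calls of all 3 replicates, and -1.52 to -0.096 with 1 replicate left out. That in recovery was 2.40 with a window of 250 bp, and -1.80 to 2.04 with 1 replicate left out, positive without replicate 1. The differences in paired and other genes (7.51 to 13.1 points), in A+T (0.43 to 7.86) and in the share between start sites (69.9 to 76.3%) kept their sign in every alternative run. With 1 replicate left out they were 8.47 to 10.1, 3.52 to 4.58 and 74.4 to 75.5%. The difference in genes was 7.51 in the higher-signal part, 8.05 among peaks in the top calls of all 3 replicates and 8.47 without replicate 2, where fewer peaks are counted, and 13.1 without histone genes. The DRE difference of 3.77 points was 0.75 with a window of 250 bp, 2.38 with 1 start site per gene, 1.55 for motifs within 50 bp of the summit, 7.57 for the core letters and 3.67 to 4.55 with 1 replicate left out. Set against divergent pairs with no IDR summit in place of start sites of 1 strand, comparisons chosen after the data were seen, it was -2.51, and the A+T difference was 0.43. The A+T difference was 7.86 with a window of 250 bp and 1.81 with 1000 bp. The cause of these changes was not tested. Rank does not use the match between lists, so matching within 100 bp gave no other value for it, and recovery has no value among peaks already in all 3 top lists. No paired analysis was possible because there is 1 group with no second one to pair it with; sets of peaks were compared within each replicate. Depth is unknown and 3 replicates cannot give a p below 0.25.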

Other observations

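Of the other letters searched within 100 bp of the summit, CACACA was in 12.8% of windows at bidirectional promoters (exact interval 9.85 to 16.3%), 19.0% at start sites of 1 strand (16.8 to 21.3%) and 9.81% at divergent pairs with no IDR summit. By replicate it was in 12.7%, 12.3% and 15.2% at bidirectional promoters, against 22.9%, 18.9% and 19.4% at start sites of 1 strand, without overlap. The difference was not tested. The E-box CAGCTG was in 13.0% of windows at bidirectional promoters, 10.8% at start sites of 1 strand and 12.4% at divergent pairs with no IDR summit, while in the top calls of replicates 1, 2 and 3 it was in 19.0%, 12.3% and 10.4% at bidirectional promoters. Peaks away from protein-coding start sites held it in 6.75%. The E-box CACGTG was in 2.92%, 2.34% and 2.31% in that order, the CTCF letters AGGTGGC in 2.47%, 1.54% and 1.85%, the GATA letters AGATAAG in 3.15%, 2.91% and 2.82%, and the Zelda letters CAGGTAG in 0.67%, 0.97% and 0.88%. Alternating A and T (TATATA) was in 22.2%, 17.4% and 20.3%. Windows at pairs with no IDR summit were centred on midpoints, the others on summits. Around the midpoints of the 455 divergent pairs with an IDR summit, CACACA was in 9.01% and AGATAAG in 2.64%, both below the pairs without one. The other letters of this paragraph kept their order.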
